A study of Rattus norvegicus with 6 samples.

Results

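Transcripts of 6 genes of renal bicarbonate handling were followed in kidneys of Dahl S rats and of a congenic strain: the apical sodium-proton exchanger Slc9a3 (NHE3), the basolateral sodium-bicarbonate cotransporter Slc4a4 (NBCe1), the anion exchanger Slc4a2 (AE2) and the carbonic anhydrases Car2, Car4 and Car12. The members were all probe sets that the platform annotation assigns to these symbols, which gave 6 of 14218 named genes and 9 of the 31042 probe sets that are not controls: 2 each for Slc4a4, Car2 and Car4, and 1 each for Slc9a3, Slc4a2 and Car12. Each of 6 Affymetrix Rat 230 2.0 arrays held pooled kidney RNA of 2 male rats, and 3 arrays came from each strain. The S rats carried the genotype labelled Dahl salt sensitive, and the congenic rats a segment of chromosome 9 from the R strain on the Dahl S background. Both strains received a diet with 2% salt from weaning at 30 days, and the kidneys were taken at 53 days of age. All 6 rats of each strain were male and born on one day, and groups on a low-salt diet or of the R parental strain were not analysed here. RNA was taken from the kidney without separation of segments or cell types, so fewer cells of a type and less RNA per cell cannot be told apart. By RefSeq's annotation of GRCr8, a rat assembly, the member genes lie on chromosomes 1 (Slc9a3), 14 (Slc4a4), 4 (Slc4a2), 2 (Car2), 10 (Car4) and 8 (Car12), and 0 of them on chromosome 9.

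The proximal tubule reclaims most of the filtered bicarbonate. NHE3 secretes protons into the lumen, the membrane-anchored enzyme Car4 turns the carbonic acid formed there into carbon dioxide and water, cytosolic Car2 regenerates protons and bicarbonate inside the cell, and NBCe1 carries bicarbonate out across the basolateral membrane together with sodium. AE2 exchanges chloride for bicarbonate at the basolateral membrane of several nephron segments, and Car12 is a membrane-bound carbonic anhydrase of epithelia. Because NHE3 and NBCe1 move sodium as well as acid and base, they belong to the transporters of interest in a salt-sensitive strain.

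The values are MAS5 signals, 1 per probe set on a linear scale. Signals of different probe sets were not compared, except to pick the brightest probe set of a gene. The marker sums below add linear signals, so the brightest markers weigh most in them. Between arrays, Spearman correlations over all probe sets were 0.969 to 0.977. The markers of kidney tubule were present on every array. The summed signal of 6 proximal tubule markers ran from 16719 to 18341 on S arrays and from 16783 to 16985 on congenic arrays, and that of 4 measured intercalated cell markers from 998 to 1264 and from 1187 to 1321. The sums of 3 thick ascending limb markers, 10602 to 11091 in S and 11241 to 11929 in congenic pools, and of 3 principal cell markers, 3735 to 4214 and 4460 to 5238, did not overlap and were higher in congenic pools. By single marker, Umod, Slc12a1 and Kcnj1 of the thick ascending limb and Scnn1g of principal cells overlapped between the strains. The principal cell water channels Aqp2 and Aqp3 did not, where 5.71% of all tested probe sets were higher without overlap. Aqp2 and Aqp3 had unadjusted p = 0.00732 and 0.00319 (adjusted p = 0.701 and 0.693 by limma). The part of tubule makeup in the member values was not tested. Markers of neighbouring tissues stood out on 2 arrays. The 4 liver markers summed to 8821 on congenic replicate 1 and to between 70.1 and 126 on the other arrays, and the 4 adrenal markers to 5356 on congenic replicate 3 and to between 128 and 141 elsewhere. Degraded RNA raises the ratio of 3' to 5' actin signal, and this ratio was highest on S replicate 1, at 9.42 against 6.15 to 8.13 on the other arrays.

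Of the 9 member probe sets, 7, covering 5 genes, passed the filter on low signals and were tested. None passed limma's test at an adjusted p under 0.05 (0 of 7, beside 0% of the 18625 probe sets tested), and none had an unadjusted p under 0.05 (0 of 7, beside 6.61%). The strains overlapped in each of the 7, where 12.5% of all tested probe sets had no overlap. By direction, 4 log2 fold changes of congenic over S were positive and 3 negative, and 51.3% of all tested probe sets were negative.

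**Figure D1:**
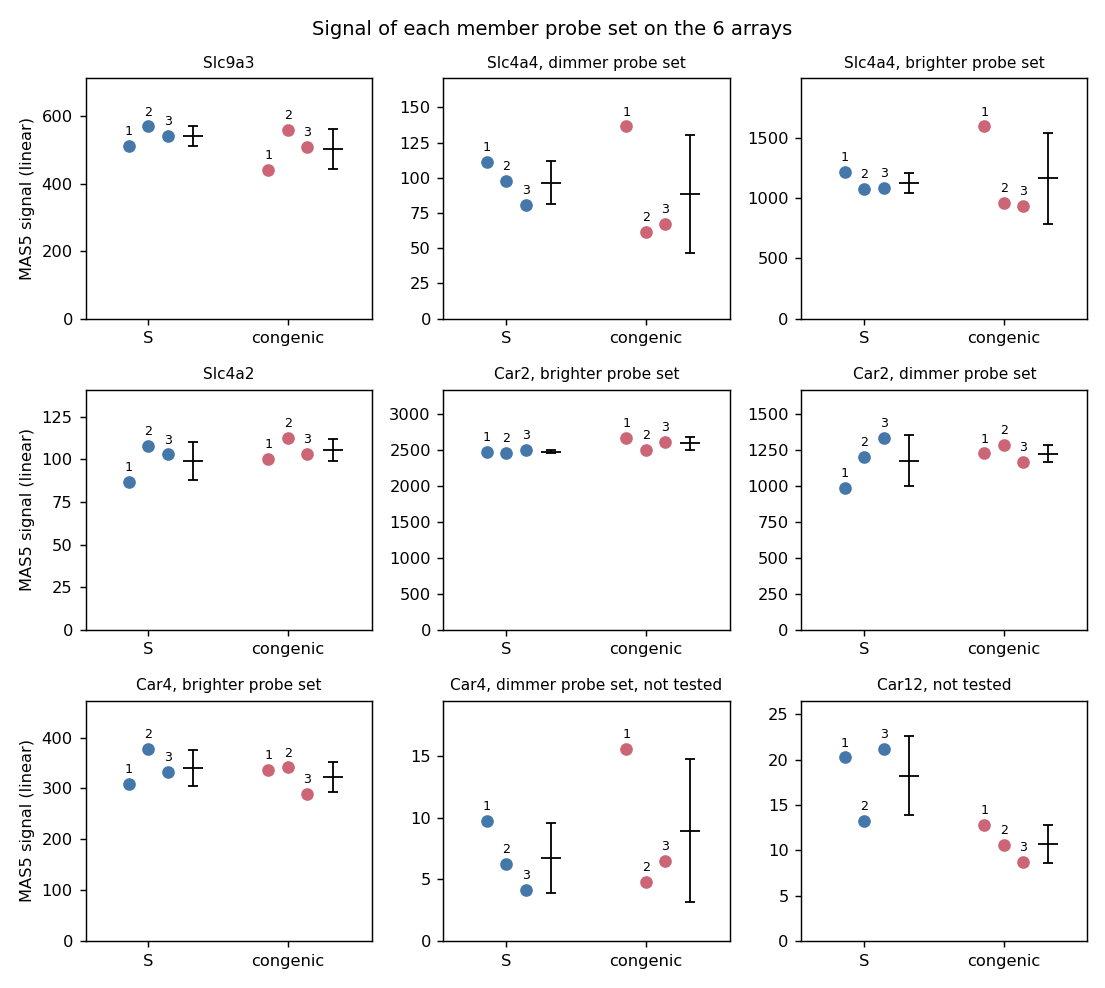
Each panel shows 1 member probe set, with the linear MAS5 signal on the vertical axis and 1 point per array (numbers are replicates; bars show mean ± SD, n = 3). The points of the strains overlap in all panels but that of Car12, and congenic replicate 1 stands highest in both panels of Slc4a4.

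Slc9a3, the exchanger through which most proximal sodium and proton exchange runs, had signals of 512, 569.7 and 541 on S arrays and of 440.2, 559 and 508 on congenic arrays. The lowest value was that of congenic replicate 1, and the other congenic arrays lay within or just below the S range. The means were 541 ± 29.0 in S and 503 ± 59.7 in congenic pools (SD, n = 3 each), and the log2 fold change was -0.11 ± 0.088 (SE; limma adjusted p = 0.833). The 95% interval of the fold change, congenic over S, was 0.811 to 1.06. Without congenic replicate 1 the log2 fold change was -0.019.

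Slc4a4, which sets the exit of bicarbonate from proximal cells, varied most among the tested members, with 1 congenic array high and the other 2 low. Its brighter probe set had signals of 1216, 1072 and 1082 on S arrays and of 1593, 957 and 935 on congenic arrays. The dimmer one had 111, 97.7 and 80.4 on S arrays and 136, 61.3 and 67.0 on congenic arrays. In both probe sets congenic replicate 1 was the highest of all 6 arrays and the other 2 congenic arrays were the lowest. The means were 1123 ± 80.3 in S and 1162 ± 373 in congenic pools for the brighter probe set and 96.4 ± 15.3 and 88.2 ± 41.8 for the dimmer one (SD, n = 3 each). The coefficient of variation in congenic pools was thus 32.2% and 47.4%, against 7.15% and 15.9% in S pools. The log2 fold changes were 0.0054 (SE 0.17) and -0.17 (SE 0.22), with limma adjusted p = 0.997 and 0.898.

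Over all 6 arrays, then, no difference in Slc4a4 was detectable, and the 95% intervals of the fold change were wide, at 0.778 to 1.29 and 0.630 to 1.26. Without congenic replicate 1 both probe sets were lower in the congenic pools and did not overlap the S pools. The log2 fold change was then -0.24 for the brighter probe set (SE 0.073, unadjusted p = 0.00813) and -0.48 for the dimmer one (SE 0.14, unadjusted p = 0.00643). In that fit 3.61% of all tested probe sets were lower at an unadjusted p under 0.05, and 12.7% were lower without overlap. These shares left out the same array for every probe set, whatever its own order of arrays. For Slc4a4 the array left out was the highest, and the other 2 congenic arrays were the lowest. Direction and lack of overlap were therefore fixed by this choice, and the p-values and shares do not allow for it. Neither probe set passed limma's test there (adjusted p = 0.687 and 0.655, with 0% of all probe sets called). The probe sets read the same gene in the same pools and are not independent of each other. Against congenic replicate 2 alone, the congenic array with neither the liver nor the adrenal transcripts, and with the error estimated from the S pools, the log2 fold changes were -0.22 and -0.53. Without congenic replicate 2 that of the dimmer probe set was 0.010. That of the brighter one was -0.027 without S replicate 2 and -0.020 without S replicate 3, and 0.14 without congenic replicate 3.

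The rise on congenic replicate 1 placed Slc4a4 among the probe sets that most set this array apart. On the log2(signal + 16) scale, the dimmer probe set stood 1.56-fold and the brighter 1.51-fold above their averages on the remaining 5 arrays, ranks 101 and 120 of 18625. From the lowest, the dimmer one ranked 107 on congenic replicate 2 and 430 on congenic replicate 3, and the brighter one 871 and 931. The whole liver marker list was also highest on congenic replicate 1 (4 of 4 markers). Alb measured 6683 on this array and 19.3 to 56.7 on the others, and Serpina1, Cps1 and Ttr were highest there too. Of the liver markers 0 were at 0 on any array. The gene whose values were most like those of Slc4a4 over the 6 arrays, among 10648 genes, was Slc5a12, a sodium-coupled lactate carrier of the proximal tubule (Pearson r = 0.995, a description over n = 6 arrays). It measured 143, 123 and 117 on S arrays and 194, 101 and 100.4 on congenic arrays. The proximal glucose carrier Slc5a2 also peaked on this array, at 191 against 87.1 to 144 elsewhere, rank 80 of 18625. The other proximal tubule markers did not stand out there: Slc34a1, the main phosphate carrier, measured 5568 against 5312 to 5960, and Lrp2, the endocytic receptor megalin, 4948 against 4978 to 5719. The fat markers Adipoq, Cidec and Plin1, the urothelium markers Upk1a and Upk3a and the red cell markers Alas2 and Ahsp were lowest on congenic replicate 1. Upk1b and Hbb were not. This array thus differed from its group in liver, some proximal and several other transcripts, and the part of any of these in the Slc4a4 values was not tested. The next gene most like Slc4a4 was Dkc1, a nucleolar RNA-modifying enzyme (r = 0.986).

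**Figure D2:**
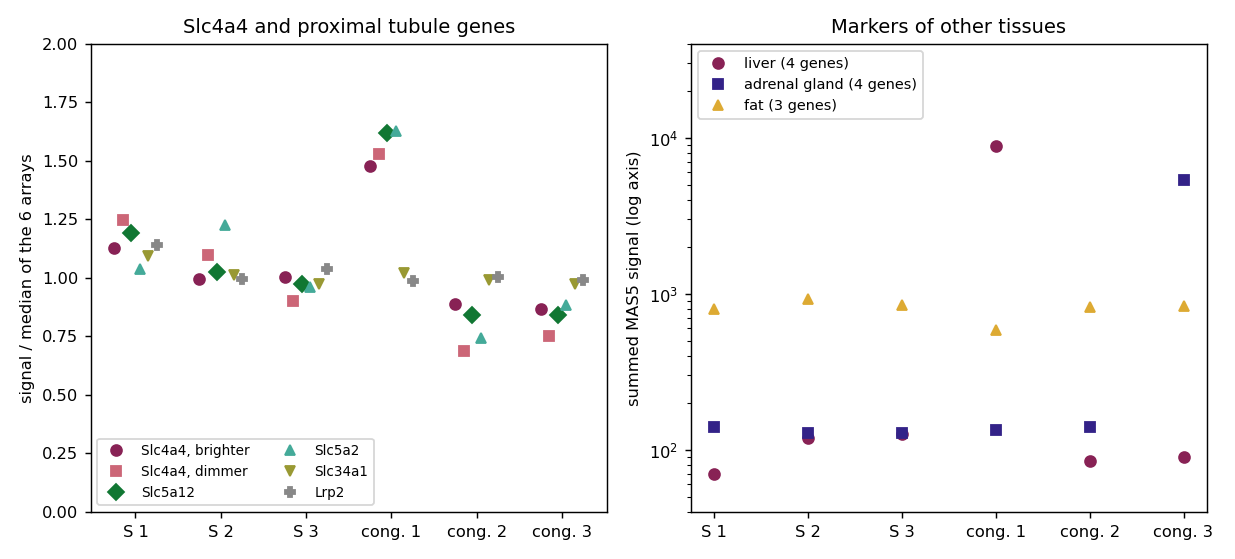
The left panel plots the signal of Slc4a4 and of other proximal tubule genes on each array (cong. 1 to 3 are the congenic replicates), divided by the median of the 6 arrays. The right panel plots the summed linear signal of liver, adrenal and fat markers on a log axis: on congenic replicate 1 both Slc4a4 probe sets, Slc5a12, Slc5a2 and the liver sum of 8821 are highest and the fat sum of 584 is lowest.

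Slc4a2, the basolateral chloride-bicarbonate exchanger, had signals of 86.7, 108 and 103 on S arrays and of 100.2, 113 and 103 on congenic arrays. S replicate 1 was the lowest, and the other 5 arrays lay close together. The means were 99.1 ± 11.1 in S and 105 ± 6.49 in congenic pools (SD, n = 3 each), and the log2 fold change was 0.080 ± 0.10 (SE; limma adjusted p = 0.897). The 95% interval of the fold change was 0.901 to 1.24, and without S replicate 1 the log2 fold change was -0.00054.

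Car2, the abundant cytosolic enzyme of proximal and intercalated cells, had the most even values in its brighter probe set, with signals of 2467, 2453 and 2495 on S arrays and of 2669, 2493 and 2609.7 on congenic arrays. Congenic replicates 1 and 3 exceeded all S arrays, whereas congenic replicate 2 lay just below the highest S array. The means were 2472 ± 21.4 in S and 2591 ± 89.3 in congenic pools (SD, n = 3 each), with coefficients of variation of 0.867% and 3.45%. The log2 fold change was 0.067 (SE 0.048; adjusted p = 0.812 by limma), and the 95% interval of the fold change, 0.973 to 1.13, was the narrowest among the tested members.

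The dimmer Car2 probe set had signals of 989.6, 1205 and 1338 on S arrays and of 1228, 1286 and 1166 on congenic arrays. All congenic values fell inside the S range, of which S replicate 1 was the lower end. Its log2 fold change was 0.068 (SE 0.096), close to that of the brighter one, with an interval of the fold change of 0.905 to 1.21. It was -0.050 without S replicate 1, where the actin ratio of 9.42 was measured. The part of RNA quality in this value was not tested. Red blood cells also contain Car2, and the summed signal of 3 red cell markers was 7168 to 8071 in S and 7783 to 8444 in congenic pools. Most of this sum was Hbb, at 6796 to 7901 over all arrays. By marker, the log2 fold change was 0.090 for Hbb, 0.0021 for Alas2 and -0.32 for Ahsp. The part of red cells in the Car2 values was not tested.

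Car4, the luminal enzyme anchored in the brush border, had signals of 308, 378 and 332 in its brighter probe set on S arrays and of 337, 341 and 288 on congenic arrays. The ranges overlapped, with congenic replicate 3 below the S range and S replicate 2 above the congenic range. The means were 339 ± 35.5 in S and 322 ± 29.4 in congenic pools (SD, n = 3 each), and the log2 fold change was -0.071 ± 0.094 (SE; limma adjusted p = 0.897) with an interval of the fold change of 0.824 to 1.10. Without S replicate 2 or congenic replicate 3 the log2 fold change was 0.0053 and 0.0030, and without S replicate 1 it was -0.14. The other Car4 probe set was dim, at 4.11 to 9.74 on S and 4.77 to 15.6 on congenic arrays, and was not tested.

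Car12 was measured near the bottom of the scale. Its only probe set had signals of 20.3, 13.3 and 21.2 on S arrays and of 12.8, 10.6 and 8.70 on congenic arrays, below the filter at a signal of about 25.0. All 3 congenic values were lower than all 3 S values, but the nearest of them were 12.8 and 13.3. In a fit without the filter the log2 fold change was -0.35 (SE 0.15, unadjusted p = 0.0405, limma adjusted p = 0.842). Of the 31042 probe sets in that fit, 3.12% were lower at an unadjusted p under 0.05 and 6.09% were lower without overlap. Detection calls were not used here, so whether this signal exceeded background is not known.

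**Figure D3:**
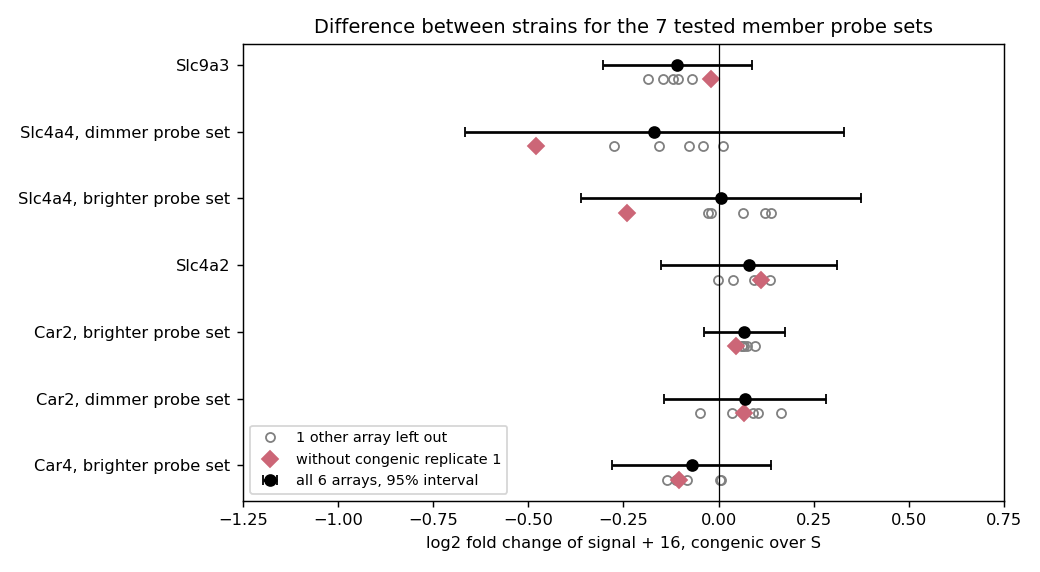
Black points and bars give the log2 fold change of signal + 16, congenic over S, with its 95% interval for each tested member probe set; open circles give the value with 1 other array left out and diamonds the value without congenic replicate 1. All intervals include 0, and the diamonds of Slc4a4 lie at -0.48 and -0.24.

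The other genes of the pathway were covered by 4 lists with 46 genes, of which 33 had a probe set and 25 were tested. None of the 25 passed the limma fit's adjusted threshold, beside 0% of all tested probe sets. None had an unadjusted p under 0.05, beside 6.61%, and 11 were higher and 14 lower in congenic pools. With each gene read by its brightest probe set, the strains did not overlap in 3 of the 25, all lower in the congenic pools, where the share over all tested probe sets was 6.79% in that direction. Among their dimmer tested probe sets 1, of Car5b, was higher without overlap, where that share was 5.71%. All tested probe sets had a median log2 fold change of -0.0036.

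Among the other carbonic anhydrases, 6 of 13 were tested, 1 higher and 5 lower, with a median log2 fold change of -0.032. Car3, an enzyme abundant in fat and muscle, had the largest difference of this list. It measured 573, 788 and 634 on S arrays and 388, 713 and 598 on congenic arrays, and its log2 fold change was -0.25 ± 0.19 (SE; adjusted p = 0.814 by limma). Congenic replicate 1 was lowest, rank 25 from the bottom among 18625 probe sets, and without it the log2 fold change was -0.012. The 3 fat markers Adipoq, Cidec and Plin1 were lowest on the same array (3 of 3, none at 0). Their summed signal was 799 to 929 in S and 584 to 835 in congenic pools, and its part in the Car3 values was not tested. A second Car3 probe set, at 49.6 to 78.1 over all arrays, was not lowest there and had a log2 fold change of 0.098 (SE 0.15). The probe sets of the mitochondrial enzyme Car5b differed in sign. The brighter one overlapped between the strains and had -0.038 (SE 0.075), from -0.11 to 0.016 with each array left out. The dimmer one had 484, 496 and 518 on S arrays and 524, 545 and 535 on congenic arrays, all higher, and its log2 fold change was 0.096 (SE 0.061; adjusted p = 0.794 by limma). Car3 was also the second most like Slc9a3 over the 6 arrays (r = 0.988), after the phosphatase inhibitor Ppp1r1a (r = 0.995).

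Of the other bicarbonate and anion transporters, 8 of 15 were tested, 3 higher and 5 lower, with a median of -0.070. Slc26a6, a brush border exchanger of chloride, oxalate and bicarbonate, had signals of 62.4, 65.0 and 56.5 on S arrays and of 51.5, 45.1 and 53.5 on congenic arrays. The strains did not overlap, and the log2 fold change was -0.23 (SE 0.11; adjusted p = 0.780 by limma). With each array left out in turn it ran from -0.27 to -0.17. The electroneutral cotransporter Slc4a7 (NBCn1) had 343, 521 and 473 on S arrays and 318, 399 and 414 on congenic arrays, a log2 fold change of -0.22 (SE 0.14; adjusted p = 0.800 by limma). Its values overlapped between the strains, and the log2 fold change was -0.39 without S replicate 1 and -0.10 without S replicate 2.

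Of the other sodium-proton exchangers, 3 of 8 were tested, 1 higher and 2 lower, with a median of -0.11. Slc9a8 (NHE8), which also works at the proximal brush border, had signals of 76.0, 86.0 and 74.4 on S arrays and of 72.8, 64.1 and 72.8 on congenic arrays. These did not overlap but came close, with a log2 fold change of -0.14 (SE 0.11; adjusted p = 0.819 by limma), or -0.088 without S replicate 2. The log2 fold change of Slc9a2 (NHE2) was -0.11 (SE 0.16), from -0.21 without S replicate 2 to 0.044 without S replicate 3, and its values overlapped.

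Of the genes on the other lists, 3 lie in GRCr8 on chromosome 9, the chromosome of the introgressed segment: Slc9a4 (NHE4), a basolateral exchanger known from stomach and thick ascending limb, Slc9a2 and the anion exchanger Slc4a3 (AE3). Whether any of them lies within the segment was not analysed here. Slc9a4 was below the filter, with signals of 19.2, 18.4 and 19.1 on S arrays and of 22.3, 25.7 and 23.6 on congenic arrays. The congenic values were all higher, and the log2 fold change in the fit without the filter was 0.19 (unadjusted p = 0.163; adjusted p = 0.862 by limma). In that fit 5.34% of probe sets were higher without overlap. Slc4a3 overlapped between the strains, at 31.5 to 41.7 in S and 24.1 to 51.5 in congenic pools, and its log2 fold change was -0.092 (SE 0.19). It was -0.30 without congenic replicate 1 and 0.076 without congenic replicate 3. Slc9a2 overlapped as well, at 55.7 to 86.0 and 50.1 to 70.8. Among the other 7 genes below the filter, Slc26a3 and Car1 were also higher without overlap, but near the bottom of the scale, at 0.322 to 0.871 in S and 2.83 to 7.01 in congenic pools for Slc26a3 and at 0.504 to 0.688 and 1.07 to 4.97 for Car1. In the fit without the filter their log2 fold changes were 0.29 and 0.17. The unadjusted p was 0.0269 and 0.146 (adjusted p = 0.841 and 0.861 by limma), where 5.92% of probe sets were under 0.05 in either direction.

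Of the partners and regulators of NHE3 and NBCe1, 8 of 10 were tested, 6 higher and 2 lower, with a median of 0.029. Ahcyl1 (IRBIT), a protein that binds and stimulates NBCe1, had signals of 1429, 1409 and 1437 on S arrays and of 1293, 1353 and 1366 on congenic arrays. All congenic values were lower, by a log2 fold change of -0.091 (SE 0.051; adjusted p = 0.782 by limma). Its other 2 probe sets overlapped between the strains, at 194 to 263 in S and 224 to 235 in congenic pools, and at 50.5 to 81.5 and 50.5 to 63.3. The peptidase Dpp4, which associates with NHE3 in the brush border, had 0.11 (SE 0.065), which was 0.033 without congenic replicate 3. The scaffold Nherf1 had 0.046 (SE 0.055) in its brighter and 0.29 (SE 0.15) in its dimmer probe set, the scaffold Pdzk1 -0.0011 (SE 0.080) and the linker ezrin (Ezr) 0.00056 (SE 0.056). Nherf2 had 0.23 (SE 0.20) in its brighter and -0.0017 (SE 0.14) in its dimmer probe set, and Nherf4 had 0.012 (SE 0.094). Sgk1 had 0.18 (SE 0.13). Without S replicate 1 the brighter probe set of Nherf2 was at 0.0017 and Sgk1 at 0.022, and without S replicate 3 at 0.40 and 0.31.

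**Figure D4:**
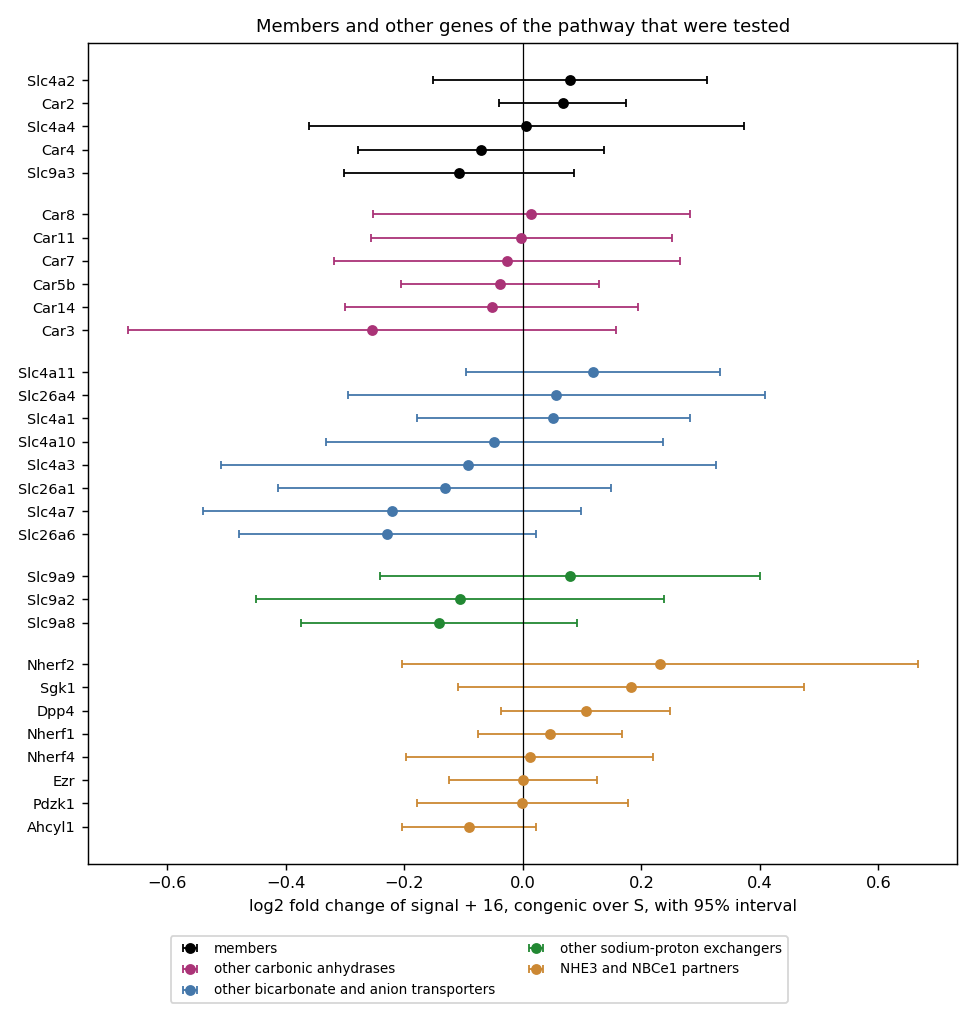
Points and bars give the log2 fold change of signal + 16, congenic over S, with its 95% interval, for the 5 tested members and the 25 tested genes of the 4 pathway lists, each represented by its brightest probe set. All 30 intervals include 0.

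For the remaining members the most similar genes over the 6 arrays were Senp3 (r = 0.992) and RT1-T24-3 (r = 0.986) for Slc4a2, Lsm5 (r = 0.997) and Map1b (r = 0.995) for Car2, and Rars1 (r = 0.987) and Ptpa (r = 0.985) for Car4. These correlations describe 6 arrays that share 2 strains, and the genes were picked as the most alike among 10648.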

How the data were processed

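Kidney RNA pools of 3 S and 3 congenic samples were grouped by their titles. The deposited intensities were linear MAS5 signals, per the submitters' processing notes. The MAS5 version, scaling target and detection calls are not given in the sources used here. On each array, the mean without the top and bottom 2% of probe sets was 150. Gene symbols of the platform annotation were renewed by gene ID from RefSeq (GRCr8). Of 31099 probe sets, 57 of them controls, 20832 had 1 symbol and 436 several, a few controls included. Of those with 1 symbol 20764 matched, and 9780 probe sets that are not controls had no symbol.

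Controls and 12417 probe sets with a mean log2(signal + 16) under the 40th percentile were left out. The remainder went into limma 3.58.1 under R 4.3.3 (eBayes with trend, 2-sided, Benjamini-Hochberg adjustment over all 18625). The fit was also run on simulated data with normal noise, and the share of changes it recovered is not reported here. Adding 16 understates fold changes of dim probe sets. Precision is limited by the number of arrays (median SE 0.11 on the log2 scale). Exact permutation of 3 against 3 arrays has a smallest p of 0.1 and was not used. The pools were of different rats. Members, lists and alternatives were chosen with earlier results of these data known. Named were all members, the 2 genes of each list with the smallest p, genes at an unadjusted p under 0.05 or without overlap, and the 2 genes most like each member. Ahsp, Alas2, Aqp2, Aqp3, Ezr, Hbb, Kcnj1, Nherf1, Nherf2, Nherf4, Pdzk1, Scnn1g, Sgk1, Slc12a1, Slc4a3, Slc5a2, Umod, Upk1a, Upk1b and Upk3a were named after their values were seen.

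Alternatives were pseudocounts of 1 and 64, no filter or the 60th percentile, quantile normalization, median centring, other eBayes settings, array weights, averaged probe sets, a replicate block, and arrays left out.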

Additional observations from a re-analysis of the deposited data

How the results depend on the processing

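No member probe set passed the adjusted threshold under any alternative run (smallest adjusted p = 0.587), and 111 of 125 member values kept their direction. The filter, the eBayes settings and the replicate block leave the log2 fold change as it is, so those values could not change direction. The direction of the brighter Slc4a4 probe set turned with quantile normalization (-0.0016), array weights (-0.024), both its probe sets averaged (-0.082) and congenic array 2 alone (-0.22). With that array alone Slc9a3 was at 0.048 and Car4 at 0.012. The cause was not tested. With each array left out, Slc9a3 ran from -0.19 to -0.019, the Slc4a4 probe sets from -0.24 to 0.14 and from -0.48 to 0.010, Slc4a2 from -0.00054 to 0.13, Car2 from 0.045 to 0.094 and from -0.050 to 0.16, and Car4 from -0.14 to 0.0053.

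Of the member probe sets, 1 had an unadjusted p under 0.05 without the filter (Car12; 5.92% of all probe sets there), 1 with congenic array 2 alone (4.2%), and 0 to 2 with each array left out (4.85% to 9.32%). Over all probe sets 0 to 3 were called with an array left out. The median of the carbonic anhydrase list then ran from -0.11 to 0.011, that of the sodium-proton exchangers from -0.17 to 0.044, that of the anion transporters from -0.11 to -0.013 and that of the partners from 0.016 to 0.072. With the 60th percentile filter the median of the anion transporters was 0.051, over fewer genes, and no sodium-proton exchanger was left. With congenic array 2 alone that of the partners was 0.084.

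Replicate numbers are shared between strains, but the labels do not say that they mark a cage or a day. Deviations of same-numbered arrays from their strain means had correlations near 0, at r = 0.043, 0.022 and 0.017. Of the 6 arrays, 4 correlated best with their own number. These 6 choices are not independent, because the deviations sum to 0 within each strain. With the replicate number as a block, 0 member probe sets and 0 in all were called, and the log2 fold change of Slc9a3 was -0.11 (adjusted p = 0.780). With 3 arrays a group and no detection calls, differences in dim members such as Car12 could not be resolved.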
